A study of Mus musculus with 4 samples.

Results

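Expression of the 9 transcription factor genes *Foxp3*, *Ikzf2*, *Tbx21*, *Eomes*, *Gata3*, *Rora*, *Prdm1*, *Id2* and *Id3* was measured in leukocytes of EO771 tumors, which grow from a mouse mammary cancer cell line implanted into the mammary fat pad. The members were chosen by name, as 9 of the 32285 genes counted, and were followed through 10 gates set on surface marker genes that exclude the members themselves. Viable CD45+ cells had been sorted from tumors in female C57BL/6 mice and sequenced with the Chromium 3′ method, in which each captured RNA molecule is counted once by its unique molecular identifier (UMI). The 4 tumors came from 2 Csf1rfl/fl mice, which carry floxed alleles of the macrophage growth factor receptor gene *Csf1r* and no Cre, and from 2 Lyve1CreCsf1rfl/fl mice, in which Cre driven from the *Lyve1* gene removes *Csf1r* in LYVE-1+ macrophages. *Lyve1* is also used by lymphatic endothelium and some other lineages, so that the deletion is not limited to tumor macrophages by its driver. Both genotypes shared the floxed alleles, the tumor line and the sort, and in each of the 2 Chromium runs a tumor of one genotype was pooled with a tumor of the other, under different hashtag antibodies.

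Lineage transcription factors bind the regulatory DNA of lymphocyte genes and set which cytokines, receptors and killing proteins a T cell or NK cell can make. *Foxp3* specifies regulatory T cells, and *Ikzf2* encodes Helios, an Ikaros family zinc finger protein used by many of them. *Tbx21* (T-bet) and *Eomes* (Eomesodermin) are T-box factors of type 1 and cytotoxic lymphocytes, and conventional NK cells rely on both. *Gata3* is needed for T cell development and drives type 2 helper cells, *Rora* encodes a nuclear receptor of innate lymphoid and helper T subsets, and *Prdm1* encodes a repressor of effector and terminally differentiated lymphocytes. *Id2* and *Id3* encode small proteins that pair with E proteins and keep them off DNA. *Id2* is needed by NK cells, dendritic cells and effector T cells, while *Id3* is known from naive and memory T cells.

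Of 53361 barcodes, the 28429 cells that the authors kept were used, and 15475 of them (54.4%) fell into a gate. The tumors gave 8699 and 7786 kept cells in Csf1rfl/fl and 7173 and 4771 in Lyve1CreCsf1rfl/fl, with 27686362 to 56715743 UMIs per tumor and a median of 3721 to 4657 UMIs per cell, and 60 barcode sequences occurred in both runs. The gates held 2637 CD8 T cells, 722 CD4 CD25+ and 499 CD4 CD25- T cells, 184 gamma delta T cells, 1668 other T cells with no UMI of *Cd4*, *Cd8a*, *Cd8b1* or *Trdc*, and 1332 NK cells. Since a marker can go undetected in a cell that uses it, the other T cells and the CD25- cells can hold members of the neighboring gates. The sum of 7 T cell markers stood at 25.2 to 46.6 UMIs per 10000 in these T cell gates, and that of 5 NK markers at 17.4 to 23.4 in NK cells and 3.002 to 4.945 in CD8 T cells, while *Cd3d*, *Cd3e* and *Cd3g* were at 0 in NK cells by the gate itself. The T cell gates also held 7 neutrophil markers at a sum of 2.25 to 23.3 UMIs per 10000, highest in CD4 CD25- T cells, against 1057 to 1985 in neutrophils. The Csf1rfl/fl tumor of run 1 stood apart by its hashtags, with 6.93% of its cells under a 3-fold hashtag ratio against 0.244% to 1.44% in the others. Levels are given as UMIs of a gene per 10000 UMIs of the gate, and 4 values in a row are those of the Csf1rfl/fl tumors of runs 1 and 2 and then of the Lyve1CreCsf1rfl/fl tumors of runs 1 and 2.

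In mm10 the members lay at chrX:7573644-7595245 (*Foxp3*), chr1:69531214-69687245 (*Ikzf2*), chr11:97098071-97115331 (*Tbx21*), chr9:118478212-118486132 (*Eomes*), chr2:9857078-9890034 (*Gata3*), chr9:68653786-69388246 (*Rora*), chr10:44437177-44528501 (*Prdm1*), chr12:25093799-25097140 (*Id2*) and chr4:136143497-136145755 (*Id3*). *Tbx21*, *Prdm1*, *Id2* and *Id3* overlapped no other annotated gene. *Foxp3*, *Ikzf2* and *Gata3* overlapped genes of the same strand, such as *Flicr* at *Foxp3* and *Gm28112* at *Ikzf2*, and reads within such overlaps are uncertain. *Eomes* and *Rora* overlapped antisense transcripts.

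E proteins, the partners of Id2 and Id3, recognize the E-box CANNTG. The promoters of the T-box pair and of the *Id* pair are shown because the proteins of each pair are related, while their genes differed in where they were detected. They are RefSeq sequences of GRCm38.p6, 5′ to 3′ on the strand of the gene, from 250 bases before to 50 after the start, at chr11:97115282-97115581 (minus strand), chr9:118477939-118478238 (plus), chr12:25096043-25096342 (minus) and chr4:136143572-136143871 (plus), with E-boxes in capitals.
Tbx21: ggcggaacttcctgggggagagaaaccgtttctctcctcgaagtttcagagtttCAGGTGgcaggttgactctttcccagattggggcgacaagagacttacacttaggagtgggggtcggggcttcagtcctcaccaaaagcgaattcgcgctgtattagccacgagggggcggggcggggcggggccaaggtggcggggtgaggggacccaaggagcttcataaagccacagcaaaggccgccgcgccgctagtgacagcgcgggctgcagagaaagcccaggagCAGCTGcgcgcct
Eomes: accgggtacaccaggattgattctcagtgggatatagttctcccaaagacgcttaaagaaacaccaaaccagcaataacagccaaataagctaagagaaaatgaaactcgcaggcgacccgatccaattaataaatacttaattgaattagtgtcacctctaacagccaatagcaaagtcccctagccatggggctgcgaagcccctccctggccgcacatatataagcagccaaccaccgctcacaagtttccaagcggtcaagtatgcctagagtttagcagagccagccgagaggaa
Id2: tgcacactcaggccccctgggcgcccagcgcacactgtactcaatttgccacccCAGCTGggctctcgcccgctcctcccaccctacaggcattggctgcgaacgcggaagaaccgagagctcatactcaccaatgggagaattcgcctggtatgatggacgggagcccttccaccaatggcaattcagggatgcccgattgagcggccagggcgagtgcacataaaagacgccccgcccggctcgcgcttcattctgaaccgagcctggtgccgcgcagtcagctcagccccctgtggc
Id3: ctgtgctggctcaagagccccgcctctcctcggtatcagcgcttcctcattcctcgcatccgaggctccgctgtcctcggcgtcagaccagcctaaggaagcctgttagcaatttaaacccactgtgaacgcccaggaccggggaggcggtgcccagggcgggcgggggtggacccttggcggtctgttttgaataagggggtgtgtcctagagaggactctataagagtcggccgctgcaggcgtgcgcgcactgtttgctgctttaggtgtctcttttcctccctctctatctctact

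The *Tbx21* window held 2 E-boxes and the *Id2* window 1, while those of *Eomes* and *Id3* held 0. RefSeq promoters were matched for 8 of the 9 members, *Ikzf2* excepted, with 2 starts for *Foxp3*. Among the others, the *Foxp3* windows held 1 and 3 E-boxes, *Prdm1* 2, *Gata3* 1 and *Rora* 0. An E-box occurred in 72.3% of all 32851 promoter windows, so that its presence is the common state. The GATA motif AGATAA, read on both strands, occurred in 11.2% of windows and among the members only in the second *Foxp3* window, and the T-box motif GGTGTGA, read on both strands, in 3.98% of windows and in none of the members. These are matches of letters and no binding was measured.

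*Foxp3* was highest in both CD4 T cell gates and in other T cells. CD4 CD25+ T cells held 2.12, 3.38, 2.36 and 2.68 UMIs per 10000 (2.63 ± 0.547, SD, n = 4), and CD4 CD25- T cells 1.11, 3.29, 2.02 and 2.05 (2.12 ± 0.898). The values of both gates overlapped, and other T cells, at 1.13 to 1.95, lay within the CD25- range and below the CD25+ range. Every value of these 3 gates was above those of gamma delta T cells (0 to 0.336) and CD8 T cells (0.0599 to 0.160), and in NK cells a single UMI was counted in each tumor. A *Foxp3* UMI was found in 67.4% ± 4.06 of CD4 CD25+ T cells and 38.0% ± 10.5 of CD4 CD25- T cells, or 42.8% ± 4.54 and 26.5% ± 8.02 once each cell was thinned to 2000 UMIs. In CD8 T cells the share was 3.25% ± 0.955 (1.74% thinned), against 0.308% ± 0.0597 (0.173% thinned) in NK cells, where the median depth of 3449.5 to 4473 UMIs per cell was near the 4214 to 5074 of CD8 T cells.

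The gene of Helios was also highest in the CD4 and other T cell gates. *Ikzf2* stood at 12.0, 17.6, 11.9 and 15.6 UMIs per 10000 in CD4 CD25+ T cells, 9.41, 18.3, 12.6 and 9.41 in CD4 CD25- T cells and 10.8 to 17.3 in other T cells, and the 3 gates overlapped. Gamma delta T cells (2.84, 7.72, 5.95 and 6.58) and CD8 T cells (1.77, 4.06, 4.07 and 3.38) lay lower, with every tumor of the CD8 gate above every tumor of the NK gate (0.646 to 1.25). The Csf1rfl/fl tumor of run 1 was the lowest in CD8, gamma delta, other T and NK cells. Among myeloid gates, plasmacytoid dendritic cells held 0.399 to 0.733 and the means of the others were at most 0.0978. A UMI of *Ikzf2* was found in 96.2% ± 0.452 of CD4 CD25+ T cells and 55.5% ± 9.99 of CD8 T cells, or 86.4% ± 2.74 and 37.0% ± 8.72 at 2000 UMIs, against 1.24% ± 1.24 in neutrophils at that depth.

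The T-box factors were highest in NK cells. *Eomes* stood at 1.17, 2.47, 1.37 and 1.76 UMIs per 10000 in NK cells, and the gamma delta T cells (0.210, 0.719, 0.769 and 1.30) overlapped this range in a single tumor. CD8 T cells (0.240, 0.449, 0.356 and 0.516) and other T cells (0.217 to 0.518) held like levels. In CD4 CD25+ T cells only 4 *Eomes* UMIs were counted in 722 cells. *Tbx21* ranged more narrowly, from 0.563, 1.20, 0.743 and 1.10 in NK cells through 0.433, 0.736, 0.538 and 0.636 in CD8 T cells to 0.235 to 0.323 in CD4 CD25+ T cells. The ranges of NK and CD8 T cells overlapped, and CD4 CD25+ T cells lay below both. At 2000 UMIs, *Eomes* was detected in 29.0% ± 7.09 of NK cells and *Tbx21* in 17.9% ± 5.17. The 4 myeloid gates held at most 0.0621 UMIs per 10000 of either gene in any tumor.

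*Gata3*, *Rora* and *Prdm1* were all highest in CD4 T cells. *Rora* stood at 1.74, 2.26, 2.21 and 2.19 UMIs per 10000 in CD4 CD25+ T cells and 1.89, 2.63, 2.69 and 2.25 in CD4 CD25- T cells, with every tumor of these gates and of other T cells above every gamma delta (0.587 to 0.719) and CD8 (0.346 to 0.618) value. NK cells held 0.12 to 0.254, below all CD8 values. *Gata3* ran from 0.899, 1.44, 1.20 and 1.57 in CD4 CD25+ T cells to 0.373, 0.565, 0.429 and 0.525 in CD8 T cells, with NK cells (0.397 to 0.805) and gamma delta T cells (0.315 to 0.839) overlapping the CD8 range. *Prdm1* was at 1.12, 1.39, 0.955 and 1.01 in CD4 CD25+ T cells and 1.13, 1.54, 0.977 and 0.872 in CD4 CD25- T cells. Unlike the other factors of this group, it had a UMI in 9.4% to 12.2% of monocytes and macrophages. The share was 2.3% to 3.2% in neutrophils, 3.4% to 7.5% in dendritic cells and 0% to 3.6% in plasmacytoid dendritic cells. Monocytes and macrophages held 0.285, 0.288, 0.326 and 0.261 UMIs of *Prdm1* per 10000, a range that overlapped gamma delta T cells (0.162 to 0.525) and lay below NK cells (0.374 to 0.466).

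The *Id* genes were spread most widely. *Id2* was highest in dendritic cells, at 9.49, 8.26, 7.84 and 8.42 UMIs per 10000, and in NK cells, at 8.49, 8.44, 6.57 and 7.94, and these gates overlapped. The 5 T cell gates lay between 4.46 and 7.07 in every tumor, above all values of neutrophils (2.71 to 4.20) and of monocytes and macrophages (2.13 to 3.98), and plasmacytoid dendritic cells held the least, at 0.440 to 0.930. *Id3* was low throughout. Its highest mean, in plasmacytoid dendritic cells, rested on 1.13, 0.0366, 0.373 and 0.712 UMIs per 10000, a spread of 0.468 (SD) around 0.563, with as few as 39 cells in a tumor. Gamma delta T cells held 0.315, 0.336, 0.607 and 0.294, CD8 T cells 0.103, 0.128, 0.179 and 0.300, and CD4 CD25+ T cells 0.0375 to 0.0702.

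**Figure D1:**
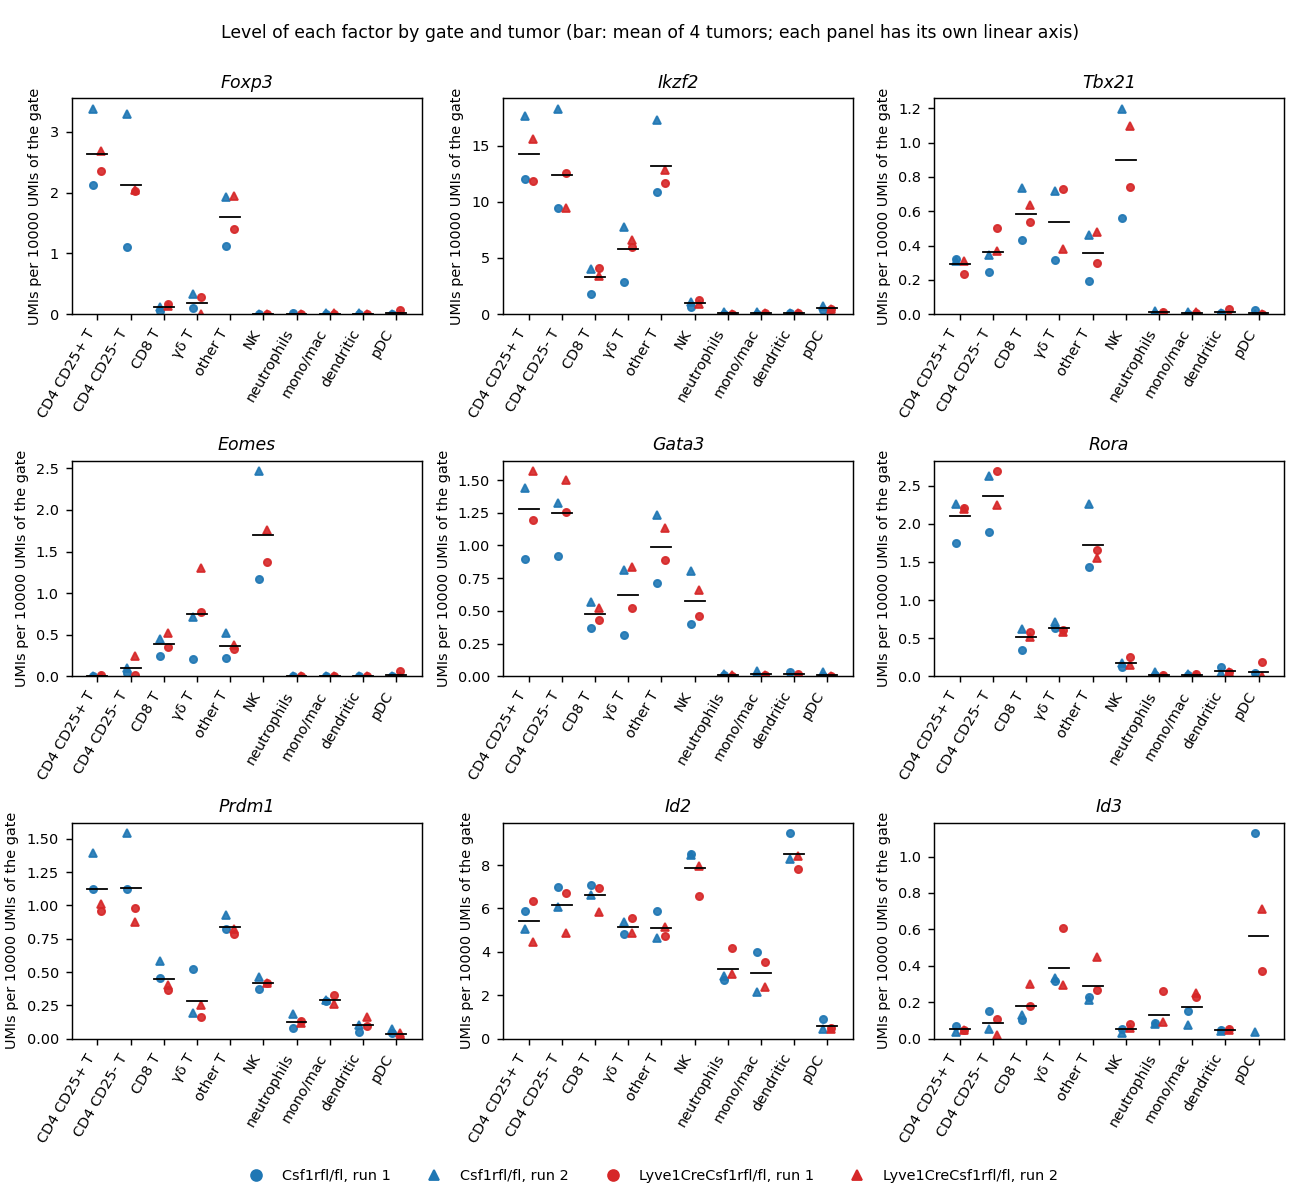
Level of each of the 9 factors (UMIs per 10000 UMIs of the gate, linear axis of its own in each panel) in 10 gates, with a point for each tumor and a bar for the mean of 4 tumors. *Foxp3*, *Ikzf2*, *Gata3* and *Rora* sit highest in the CD4 and other T cell gates, *Tbx21* and *Eomes* in NK cells, and *Id2* in dendritic and NK cells, while *Id3* in plasmacytoid dendritic cells scatters from 0.0366 to 1.13.

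The genes whose levels were most like those of each member were listed over 36 sums of gate and tumor with at least 50 cells, among 10627 genes, by Pearson's r of log2(UMIs per 10000 + 0.05). The sums share libraries and tumors, and the values are descriptions. *Foxp3* was nearest to *Itgb8* (r = 0.993), *Izumo1r* (0.980) and *Neb* (0.9745), and *Ikzf2* to *Gm28112* (0.9746), which lies within it on the same strand, then *Inpp4b* and *Grap*. *Tbx21* was nearest to *Ctla2a* (0.977), *Sh2d2a* and *Nkg7*, and *Eomes* to *Samd3* (0.978), *Klrc2* and *Xcl1*. For *Gata3* these were *Cd28* (0.980), *Cd247* and *Tnik*, for *Rora* *Icos* (0.984), *Ctla4* and *Gm28112*, and for *Prdm1* *Tspan32* (0.950), *Wls* and *Raph1*. No gene tracked the *Id* genes as closely, with *Ccl5* (0.854), *Stat4* and *Pmf1* for *Id2* and *Ly6c2* (0.631), *Gm36839* and *Tmem108* for *Id3*.

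To ask how NK cells differed from CD8 T cells, which share cytotoxic functions with them, UMIs were summed per tumor and gate and compared by edgeR's quasi-likelihood test with the tumor as a block. The T-box factors and *Id2* were higher in NK cells, and *Foxp3*, *Ikzf2*, *Rora* and *Id3* were lower. Of 9 members tested, *Tbx21*, *Eomes*, *Id2*, *Ikzf2*, *Rora* and *Id3* passed an adjusted p of 0.05, against 21.7% of all genes tested. *Foxp3* also passed but is left out of this tally, since the filter fixed its direction. *Foxp3* and *Id3* met the filter on low counts in all 4 tumors of CD8 T cells but in 0 and 3 of the 4 of NK cells. Both thus entered the test through the higher gate. *Eomes* was 2.16 higher on the log2 scale (SE 0.123, adjusted p = 6.6e-08), *Tbx21* 0.63 higher (SE 0.107, adjusted p = 0.00090) and *Id2* 0.28 higher (SE 0.0839, adjusted p = 0.028). NK cells stood above CD8 T cells for *Eomes* and *Tbx21* in each tumor. *Id2* was lower in NK cells of the Lyve1CreCsf1rfl/fl tumor of run 1, and its call was lost with DESeq2's Wald test (adjusted p = 0.081), without the block (adjusted p = 0.26), with cells of 2000 to 8000 UMIs (adjusted p = 0.054) and when any of 3 tumors was left out, those being both Csf1rfl/fl tumors and the Lyve1CreCsf1rfl/fl tumor of run 2 (adjusted p = 0.055 to 0.16).

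Of the members lower in NK cells, *Ikzf2* fell by 1.70 (SE 0.0993, adjusted p = 8.5e-08), *Rora* by 1.53 (SE 0.148, adjusted p = 8.2e-06) and *Id3* by 1.54 (SE 0.255, adjusted p = 0.00072). The 4 *Foxp3* UMIs in 6801140 UMIs of NK cells, set against 172 in 15414364 UMIs of CD8 T cells, gave a ratio of 0.0527 (95% counting interval 0.0142 to 0.137), and the ratio is given in place of a fitted fold change. *Gata3* (log2 difference 0.30, adjusted p = 0.087) and *Prdm1* (-0.06, 95% interval -0.34 to 0.22, adjusted p = 0.78) did not pass. *Gata3* passed under 3 alternatives, among them cells of 2000 to 8000 UMIs (0.36, adjusted p = 0.043).

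Gene programmes of the same lymphocytes were counted in the same comparison. Of 10 mature NK markers, 8 were higher in NK cells and 2 lower (median log2 difference 2.99 against -0.01 for all genes), led by *Cma1* (5.61), a mast cell protease gene used by NK cells, and *S1pr5* (5.23), a receptor for exit into blood. Of 14 regulatory T cell genes tested, 9 were lower, with *Tnfrsf4*, which encodes the costimulatory receptor OX40, at -4.07, and 2 were higher, among them *Klrg1* (2.79), a receptor that mature NK cells also carry. Of 11 exhaustion genes 7 were lower, with the inhibitory receptor gene *Pdcd1* at -3.97 and *Tox* at -2.33. Of 3 E protein and *Id* genes tested, *Tcf4* (1.32) and *Tcf12* (0.61) were higher in NK cells.

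CD8 T cells were next set against CD4 CD25- T cells. Here 7 of 9 members passed, against 19.3% of all genes. *Eomes* was 2.05 higher in CD8 T cells (SE 0.322, adjusted p = 0.00012), on 19 UMIs in the CD4 gate of which 12 came from the Lyve1CreCsf1rfl/fl tumor of run 2. Without that tumor the difference was 2.82 (adjusted p = 0.00010), and *Eomes* met the filter on low counts in 2 of the 4 CD4 CD25- sums. *Tbx21* was 0.79 higher (SE 0.190, adjusted p = 0.0056), a call lost without the Csf1rfl/fl tumor of run 2 (0.66, adjusted p = 0.061). In both cases the CD8 value was above the CD4 CD25- value within each tumor. The neutrophil marker sum was 2.47 to 8.94 UMIs per 10000 in CD8 T cells and 5.70 to 23.3 in CD4 CD25- T cells, and its part in this comparison was not tested.

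A further 5 members were lower in CD8 T cells. *Foxp3* fell by 4.01 (SE 0.174, adjusted p = 4.0e-12), *Rora* by 2.09 (SE 0.118, adjusted p = 1.5e-10), *Ikzf2* by 1.802 (SE 0.118, adjusted p = 1.3e-09), *Gata3* by 1.28 (SE 0.135, adjusted p = 9.3e-07) and *Prdm1* by 1.19 (SE 0.137, adjusted p = 3.1e-06). For each of these every CD8 value lay below every CD4 CD25- value. *Id2* (0.23, adjusted p = 0.058) and *Id3* (1.11, SE 0.440, adjusted p = 0.089) did not pass. *Id3* passed without the Csf1rfl/fl tumor of run 1 (1.86, adjusted p = 0.012) and *Id2* with cells of 2000 to 8000 UMIs (0.35, adjusted p = 0.0032), and both without a filter on low counts.

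Around these factors, 12 of 16 type 1 and killer genes were higher in CD8 T cells and 1 was lower (median log2 difference 1.28 against 0.02 for all genes), with the pore-forming protein gene *Prf1* at 3.59 and the activating receptor gene *Klrk1* at 2.95. All 18 regulatory T cell genes were tested and 16 were lower, with *Areg*, a repair growth factor gene, at -3.97 and *Ebi3*, a cytokine subunit gene, at -3.52. Of 17 other lymphocyte transcription factor genes 5 were higher, among them *Runx3* (1.49), a factor of the CD8 lineage, and 7 lower, among them *Zbtb7b* (-2.28), the factor that sets the CD4 lineage.

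**Figure D2:**
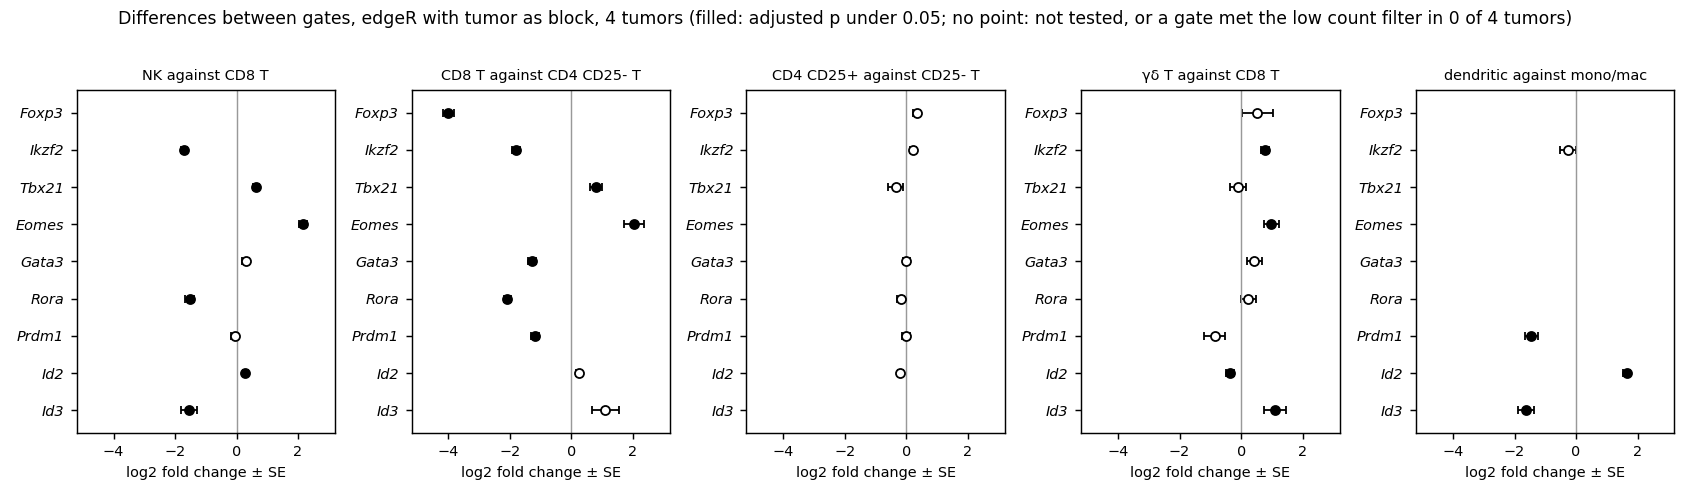
Log2 fold change between gates (horizontal axis, ± SE, edgeR with tumor as block, 4 tumors) for each factor in 5 comparisons, filled where the adjusted p is under 0.05 and absent where not tested or where a gate met the filter on low counts in 0 of 4 tumors (*Foxp3* in NK cells, *Rora* in monocytes and macrophages). *Eomes* is shifted to the right in NK cells (2.16) and in CD8 T cells (2.05), *Foxp3* lies far to the left in CD8 against CD4 CD25- T cells (-4.01), and no point is filled for CD4 CD25+ against CD25- T cells.

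CD25, the interleukin-2 receptor alpha chain encoded by *Il2ra*, is a surface marker of regulatory T cells, so CD4 T cells with and without an *Il2ra* UMI were compared. None of the 7 members tested passed in edgeR, against 10.6% of all genes, with 3 members at an unadjusted p under 0.05 and 0 called by DESeq2. The highest of these 3 unadjusted p-values, 0.0448 for *Ikzf2* by edgeR, was above that of 24.1% of all genes tested. *Foxp3* was 0.34 higher in CD25+ cells (SE 0.124, 95% interval 0.08 to 0.60, adjusted p = 0.089), *Ikzf2* 0.21 (SE 0.0986, adjusted p = 0.19) and *Id2* -0.19 (SE 0.0821, adjusted p = 0.14). Depth moved with the gates, since CD25+ cells had medians of 4061.5 to 5063 UMIs and CD25- cells 2520 to 3196.5. The sum of 7 neutrophil markers was 2.25 to 6.09 UMIs per 10000 in CD25+ cells and 5.70 to 23.3 in CD25- cells, highest in the Lyve1CreCsf1rfl/fl tumor of run 1, with *Csf3r*, *Cxcr2* and *Ly6g* at 0 by the gate, and its part was not tested. Among cells of 2000 to 8000 UMIs *Foxp3* (0.69, adjusted p = 0.0019) and *Ikzf2* (0.53, adjusted p = 0.00019) passed, as they did without the 5% of cells with most UMIs (0.44 and 0.30, adjusted p = 0.015 and 0.045). *Eomes* was too low to be tested, with 0, 1, 3 and 0 UMIs in CD25+ cells and 2, 4, 1 and 12 in CD25- cells of the 4 tumors.

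In the same comparison 4 of 17 regulatory T cell genes were higher in CD25+ cells and 0 lower (median 0.26 against -0.01 for all genes), among them *Tnfrsf4* (0.61) and the inhibitory receptor gene *Ctla4* (0.52). Of 14 type 1 and killer genes 7 were lower and 1 higher, with the granzyme gene *Gzma* at -2.06 and the chemokine gene *Ccl5* at -1.09. *Tcf7*, a factor of naive and memory T cells, was at -2.13.

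Gamma delta T cells, which carry the other form of the T cell receptor, were compared with CD8 T cells. Of the 9 members 4 passed, against 10.7% of all genes, in a gate of 23 to 59 cells per tumor. *Ikzf2* was 0.78 higher (SE 0.126, adjusted p = 9.5e-06) and *Eomes* 0.98 higher (SE 0.249, adjusted p = 0.0056). *Id3* was 1.11 higher (SE 0.356, adjusted p = 0.035), on 32 UMIs, and *Id2* was lower by 0.36, as a log2 difference of -0.36 (SE 0.118, adjusted p = 0.038). *Ikzf2* was higher in gamma delta T cells in 4 of 4 tumors and *Eomes* and *Id3* each in 3 of 4, while *Id2* was lower in 4 of 4. Only the *Ikzf2* call held with DESeq2, where the adjusted p of *Eomes*, *Id3* and *Id2* was 0.059, 0.096 and 0.17. Without the block, 2 calls stood, and the *Id2* and *Id3* calls were lost (adjusted p = 0.21 and 0.10). The *Id2* call was also lost without any single tumor (adjusted p = 0.058 to 0.14), that of *Id3* without any but the Lyve1CreCsf1rfl/fl tumor of run 2 (adjusted p = 0.11 to 0.43), and that of *Eomes* without the latter tumor (0.77, adjusted p = 0.17). *Prdm1* did not pass (-0.86, adjusted p = 0.11), except without the 5% of cells with most UMIs (-1.24, adjusted p = 0.013).

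Beside these, 9 of 11 naive and memory genes were higher in gamma delta T cells and 0 lower (median 1.57 against -0.05 for all genes), with *S1pr1*, a receptor gene for exit from tissue, at 2.18. Of 11 exhaustion genes 7 were lower and 1 higher, with *Havcr2* at -3.76 and *Lag3* at -3.14, both inhibitory receptor genes. Of 8 markers of type 1 innate lymphoid cells (ILC1) 5 were higher, led by the granzyme gene *Gzmc* (3.21), and 1 lower, the chemokine receptor gene *Cxcr6* (-1.89).

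Dendritic cells were compared with monocytes and macrophages for the members detected in myeloid cells. Of 5 members tested, *Id2*, *Prdm1* and *Id3* passed, against 55.1% of all genes, so that a call is the common state here. *Rora* also passed but is left out of this tally. *Id2* was 1.64 higher in dendritic cells (SE 0.114, adjusted p = 6.3e-08). *Rora* met the filter on low counts in 4 of 4 tumors of dendritic cells and in 0 of 4 of monocytes and macrophages, so that its call came through the dendritic cells. Its 48 UMIs in 18840444 UMIs of monocytes and macrophages, set against 49 in 7254604 of dendritic cells, gave a ratio of 0.377 (95% counting interval 0.248 to 0.574). *Prdm1* fell by 1.46 (SE 0.213, adjusted p = 6.7e-05) and *Id3* by 1.63 (SE 0.253, adjusted p = 0.00011). For *Id2*, *Rora* and *Prdm1* every tumor of a gate stood apart from every tumor of the other, and so it was for *Id3*, with 0.0412 to 0.0540 UMIs per 10000 in dendritic cells against 0.0753 to 0.252. The calls of *Id2*, *Prdm1* and *Id3* held under every alternative run, and that of *Rora*, whose direction the filter fixed, is not counted here. *Ikzf2* did not pass (-0.27, 95% interval -0.84 to 0.30, adjusted p = 0.40).

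The members were next followed within a gate, by splitting cells on a UMI of another member, with the splitting gene left out of the result. A class without a UMI can hold cells in which the gene went undetected. When the CD4 T cells with *Foxp3* were thinned to 2000 UMIs, *Foxp3* was still found in 60.2% to 69.8% of them. Cells with a UMI were deeper in each tumor, apart from *Id3* in the Lyve1CreCsf1rfl/fl tumor of run 2 (4815 against 5065), at medians of 3706.5 to 4035.5 against 2703 to 3290.5 UMIs for *Foxp3* in CD4 T cells, 3734 to 5182.5 against 3278.5 to 4119 for *Eomes* in NK cells, and 4815 to 6062 against 4202 to 5065 for *Id3* in CD8 T cells.

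The 678 CD4 T cells with a *Foxp3* UMI held 13.2, 19.2, 13.3 and 16.8 UMIs of *Ikzf2* per 10000, and the 543 without held 8.75, 14.6, 9.74 and 8.52. Those with *Foxp3* were higher in each tumor, though the ranges overlapped. *Ikzf2* was 0.56 higher (SE 0.0725, adjusted p = 1.8e-06). *Id2* stood at 5.08, 4.81, 6.38 and 3.91 with *Foxp3* and 7.58, 6.24, 6.52 and 5.51 without, lower in each tumor, and fell by 0.40 (SE 0.0834, adjusted p = 0.0019). These were 2 of 6 members tested, against 6.93% of all genes, and neither passed without the block (adjusted p = 0.14 and 0.41). In cells of 2000 to 8000 UMIs *Ikzf2* alone passed, with *Id2* at -0.28 (adjusted p = 0.11). *Prdm1* was at 0.36 (SE 0.131, adjusted p = 0.10), and *Gata3*, *Rora* and *Tbx21* lay between -0.21 and 0.10.

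At 2000 UMIs per cell, *Ikzf2* was detected in 87.2%, 93.2%, 90.1% and 91.7% of CD4 T cells that held *Foxp3* and in 56.5%, 74.9%, 65.9% and 53.6% of those that did not. *Ikzf2* RNA was thus found in most cells of either class in all 4 tumors, and the class without *Foxp3* can hold *Foxp3* cells that were missed. Of 17 regulatory T cell genes 7 were higher with *Foxp3* and 0 lower (median 0.40 against 0.00 for all genes), with *Itgae* (0.82), the integrin chain of CD103, and *Klrg1* (0.78), a receptor of mature effector cells. Of 14 type 1 and killer genes 5 were lower, with the interferon gamma gene *Ifng* at -3.15, and *Tcf7* was at -2.08. The sum of 5 cycling markers was 10.6 to 13.6 UMIs per 10000 with *Foxp3* and 6.68 to 11.8 without, and its part in these differences was not tested.

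NK cells with an *Eomes* UMI (616) were compared with those without (716). *Rora* UMIs numbered 2, 10, 1 and 8 in cells with *Eomes* and 24, 16, 41 and 14 in cells without, or 0.0209, 0.115, 0.0140 and 0.0930 against 0.198, 0.254, 0.437 and 0.228 per 10000. All 4 values with *Eomes* lay below all 4 without. The sums of 21 and 95 UMIs gave a ratio of 0.220 (95% counting interval 0.130 to 0.356). *Rora* met the filter on low counts in 4 of 4 tumors without *Eomes* and in 0 of 4 with it, so that its call (adjusted p = 0.00020) came through the cells without *Eomes*. The other 5 members tested did not pass, against 3.04% of all genes called. Among cells of 2000 to 8000 UMIs *Rora* fell below the filter on low counts and was not tested. *Tbx21* did not pass (-0.19, 95% interval -0.45 to 0.07, adjusted p = 0.61), nor did *Prdm1* (-0.41, adjusted p = 0.34), *Ikzf2* (-0.29, adjusted p = 0.39), *Gata3* (0.03) or *Id2* (-0.11).

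ILC1, the tissue-resident relatives of NK cells, are known for low *Eomes*, and of 7 ILC1 markers tested 6 were lower in cells with *Eomes* and 0 higher (median -1.57 against 0.00 for all genes). *Cxcr6* was at -3.92 (adjusted p = 9.0e-08), *Tmem176a* at -2.89 (adjusted p = 4.4e-08) and *Tmem176b* at -2.36 (adjusted p = 1.9e-08), and *Il7r*, the interleukin-7 receptor gene, at -1.57. Of 10 mature NK markers 1 was lower, *Ly6c2* (-0.90), and 0 were higher. The sum of 5 NK markers was 19.8 to 24.5 UMIs per 10000 with *Eomes* and 15.5 to 22.0 without, higher with *Eomes* in each tumor, and its part in these differences was not tested. At 2000 UMIs *Eomes* was found in 19.7%, 35.2%, 20.3% and 29.8% of NK cells with *Tbx21* and in 21.4%, 38.2%, 28.2% and 34.4% of those without, and before thinning in 38.4%, 55.7%, 38.9% and 54.9% against 38.1%, 54.9%, 40.8% and 54.2%. The thinned share was lower with *Tbx21* in 4 of 4 tumors and the unthinned share higher in 3 of 4, and no difference was tested. In CD8 T cells these shares were 4.92%, 7.50%, 4.14% and 5.35% against 3.91%, 7.20%, 7.44% and 10.8%, higher with *Tbx21* in both Csf1rfl/fl tumors and lower in both Lyve1CreCsf1rfl/fl tumors, a difference that was not tested.

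CD8 T cells with an *Id3* UMI numbered 153, or 26 to 56 per tumor, against 2484 without. *Id2* stood at 2.09, 3.02, 2.79 and 3.19 UMIs per 10000 with *Id3* and at 7.36, 6.88, 7.34 and 6.15 without, with no overlap. *Id2* fell by 1.28 (SE 0.141, adjusted p = 9.9e-07). *Prdm1* stood at 0.137, 0.168, 0.106 and 0.0833 against 0.473, 0.617, 0.388 and 0.439, again with no overlap, and fell by 1.93 (SE 0.331, adjusted p = 0.00051). The values with *Id3* rested on 14 *Prdm1* UMIs, at most 4 in a tumor, a ratio of 0.248 (95% counting interval 0.135 to 0.419). *Foxp3* was counted once in the cells with *Id3*, against 171 UMIs in the cells without, a ratio of 0.0710 (95% counting interval 0.00179 to 0.401). It met the filter on low counts in 4 of 4 tumors without *Id3* and in 0 of 4 with it, so that its call (adjusted p = 0.011) came through the cells without *Id3*. The *Foxp3* call was lost without the block (adjusted p = 0.093), without the Csf1rfl/fl tumor of run 2 (adjusted p = 0.067) and without the Lyve1CreCsf1rfl/fl tumor of run 1 (adjusted p = 0.098).

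Of 8 members tested, *Id2* and *Prdm1* passed, against 4.17% of all genes. *Foxp3* is left out of this tally, since its call came through the cells without *Id3*. *Eomes* was 0.85 higher with *Id3* (SE 0.269, adjusted p = 0.080), and passed without the Csf1rfl/fl tumor of run 1 (1.10, adjusted p = 0.015) and without the 5% of cells with most UMIs (0.86, adjusted p = 0.047). *Tbx21* (-0.68, adjusted p = 0.20) and *Rora* (-0.74, adjusted p = 0.22) did not pass, though *Tbx21* did without the Lyve1CreCsf1rfl/fl tumor of run 2 (-1.20, adjusted p = 0.029). *Ikzf2* (0.19, adjusted p = 0.60) passed without the 5% of cells with most UMIs (0.40, adjusted p = 0.047), and *Gata3* was at -0.19 (adjusted p = 0.83). At 2000 UMIs, *Id3* was detected in 1.12%, 2.03%, 1.84% and 4.03% of CD8 T cells with *Id2* and in 5.44%, 4.25%, 9.72% and 11.9% of those without.

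Around them, 8 of 11 naive and memory genes were higher in CD8 T cells with *Id3* and 0 lower (median 1.46 against 0.00 for all genes), among them *Tcf7* (2.23, adjusted p = 6.6e-09) and *Slamf6* (1.93). Of 16 type 1 and killer genes 11 were lower and 0 higher, with *Prf1* at -2.41, and of 11 exhaustion genes 7 were lower and 0 higher, with *Havcr2* at -2.98. The E protein genes *Tcf4* (1.14) and *Tcf12* (0.83), whose products Id proteins hold off DNA, were 2 of 3 tested that were higher. T cell markers summed to 27.8 to 38.2 UMIs per 10000 with *Id3* and 41.8 to 48.3 without, and ribosomal protein genes to 2710 to 3366 and 2527 to 3024. The part of either in these differences was not tested.

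**Figure D3:**
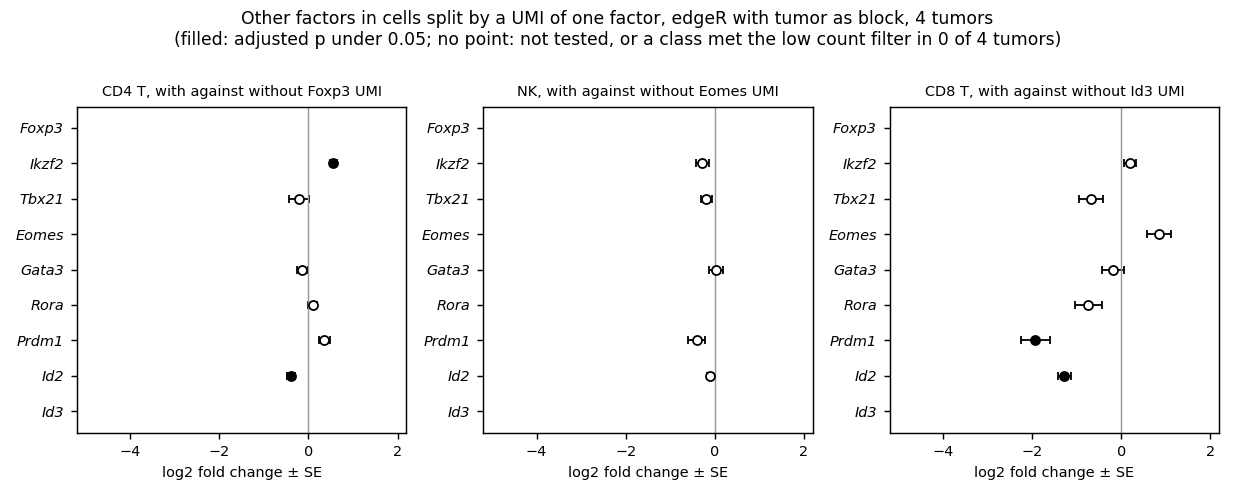
Log2 fold change of the other factors (± SE, edgeR with tumor as block, 4 tumors) in cells with against without a UMI of *Foxp3* (CD4 T cells), *Eomes* (NK cells) and *Id3* (CD8 T cells), filled where the adjusted p is under 0.05. Filled points are *Ikzf2* (0.56) and *Id2* (-0.40) on the left and *Prdm1* (-1.93) and *Id2* (-1.28) on the right. *Rora* in the middle and *Foxp3* on the right, which met the filter on low counts in 0 of 4 tumors of a class, are not drawn.

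**Figure D4:**
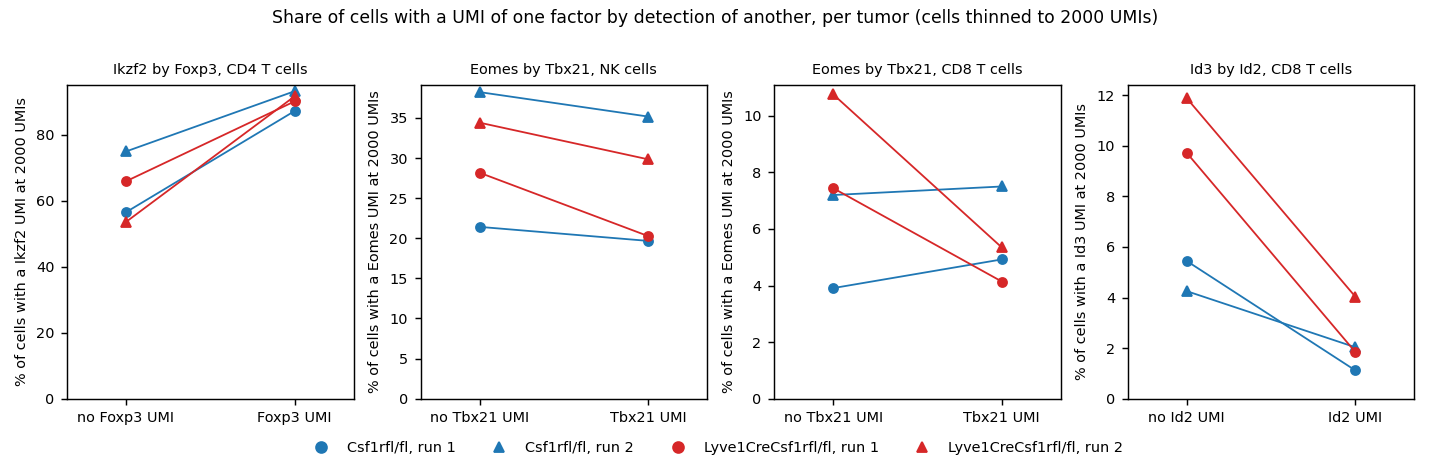
Share of cells (%, linear axis from 0) with a UMI of a factor after thinning to 2000 UMIs, in cells without (left) and with (right) a UMI of another factor, with a line for each tumor. *Ikzf2* rises with *Foxp3* in CD4 T cells in all 4 tumors, to 87.2% to 93.2%, and *Id3* is rarer in CD8 T cells with *Id2* in all 4, at 1.12% to 4.03%, while *Eomes* with *Tbx21* lies at 19.7% to 35.2% in NK cells, against 21.4% to 38.2% without, and goes either way in CD8 T cells.

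The study compared the genotypes to learn what loss of LYVE-1+ macrophages does to tumors. With 2 tumors against 2, an exact permutation test of a single value cannot go below p = 0.3333. The p-values of edgeR set a difference against the variance within genotypes, which is estimated with information shared across all genes tested. None of the members passed in any of 8 gates, with 9 tested in CD8 T cells, 7 in CD4 CD25+, 7 in CD4 CD25-, 6 in gamma delta, 9 in all T cells, 7 in NK cells, 5 in monocytes and macrophages and 4 in dendritic cells. Over all genes, 0.0122% passed in CD4 CD25+ T cells, 0.0165% in CD4 CD25- T cells and 0% in the other 6 gates. The gene of CD4 CD25+ T cells was *Gzma*, a granzyme gene (3.35 higher in Lyve1CreCsf1rfl/fl, SE 0.472, adjusted p = 0.030), and that of CD4 CD25- T cells *Ccl6*, a chemokine gene also made by myeloid cells (2.996 higher, SE 0.478, adjusted p = 0.013). The neutrophil marker sum of the CD4 CD25- gate was 9.92 and 5.84 UMIs per 10000 in the Csf1rfl/fl tumors and 23.3 and 5.70 in the Lyve1CreCsf1rfl/fl tumors, and its part in the *Ccl6* call was not tested. DESeq2 called 0 members in every gate, and so did edgeR with the run as a block, which called 0 to 51 genes in all. Unadjusted p-values under 0.05 were found in edgeR for 3 of 9 members in CD8 T cells (*Foxp3*, *Prdm1* and *Id3*), against 210 of 10314 genes. In all T cells this held for 1 of 9 members (*Id3*), against 141 of 11720 genes. In monocytes and macrophages it held for 1 of 5 (*Id3*), against 228 of 10527 genes. The other 5 gates had 0 such members, with 64 to 243 such genes in gates of 3221 to 8834 genes tested.

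*Id3* had the lowest p of any member. CD8 T cells held 0.103 and 0.128 UMIs of *Id3* per 10000 in the Csf1rfl/fl tumors and 0.179 and 0.300 in the Lyve1CreCsf1rfl/fl tumors, so that the Lyve1CreCsf1rfl/fl tumors were higher in both runs without overlap. The log2 difference was 1.06 (SE 0.256, adjusted p = 0.999 by edgeR). In all T cells the values were 0.127 and 0.126 against 0.190 and 0.270, a difference of 0.85 (SE 0.200, adjusted p = 0.9998). In monocytes and macrophages they were 0.153 and 0.0753 against 0.227 and 0.252, a difference of 1.06 (SE 0.353, adjusted p = 0.99995). Cells entered this gate by a UMI of *Csf1r*, *Adgre1* or *Fcgr1*, and *Csf1r* is the floxed gene. The gate held 15.1% and 13.8% of kept cells in the Csf1rfl/fl tumors and 11.2% and 9.16% in the Lyve1CreCsf1rfl/fl tumors. The part of gate membership in the *Id3* difference was not tested. *Id3* passed in CD8 T cells with no filter on low counts (1.04, adjusted p = 0.027). Over 13 alternatives the difference ran from 0.76 to 1.49 in CD8 T cells and from 0.67 to 1.01 in all T cells. In monocytes and macrophages it ran from 0.60 to 1.75. Leaving out a tumor leaves 1 tumor in a genotype, with no replicate, so only the size of the difference is given. The sizes named here are a selection, all above the main difference. In CD8 T cells the difference was 1.11 without the Csf1rfl/fl tumor of run 2 and 1.29 without the Lyve1CreCsf1rfl/fl tumor of run 1. Without the Csf1rfl/fl tumor of run 1 it was 0.98 in all T cells and 1.75 in monocytes and macrophages. Over the other settings the adjusted p of these differences lay between 0.072 and 1, and with the run as a block it was 0.22, 0.82 and 0.41.

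*Prdm1* lay lower in the Lyve1CreCsf1rfl/fl tumors of both runs in CD8 T cells and in both CD4 gates, though no test passed. CD8 T cells held 0.455 and 0.586 UMIs per 10000 against 0.362 and 0.402 (log2 difference -0.43, SE 0.177, adjusted p = 0.999). CD4 CD25+ T cells held 1.12 and 1.39 against 0.955 and 1.01 (-0.34, SE 0.240), and CD4 CD25- T cells 1.13 and 1.54 against 0.977 and 0.872 (-0.49, SE 0.318). In all T cells the genotypes overlapped, at 0.626 and 0.865 against 0.643 and 0.620 (-0.22, SE 0.180), with run 1 going the other way. In NK cells they overlapped too, at 0.374 and 0.466 against 0.417 and 0.420 (0.01, 95% interval -0.55 to 0.58). *Foxp3* in CD8 T cells stood at 0.0599 and 0.119 against 0.160 and 0.140 (0.81, SE 0.326, adjusted p = 0.999), and in CD4 CD25+ T cells the genotypes overlapped (-0.11, 95% interval -0.65 to 0.43).

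Tumors of the genotypes did not overlap for 3 of 9 members in CD8 T cells (*Foxp3* and *Id3* higher, *Prdm1* lower), against 19.8% of all genes. They did not for 1 of 7 in CD4 CD25+ T cells (*Prdm1* lower, against 22.2%), 2 of 7 in CD4 CD25- T cells (*Tbx21* higher, *Prdm1* lower, against 24%) and 2 of 6 in gamma delta T cells (*Eomes* higher, *Rora* lower, against 25%). The counts were 1 of 9 in all T cells (*Id3*, against 17%), 1 of 7 in NK cells (*Id2* lower, against 19.2%), 1 of 5 in monocytes and macrophages (*Id3*, against 21.6%) and 0 of 4 in dendritic cells (against 25%). The 95% intervals of the *Id2* difference ran from -0.68 to 0.50 in CD8 T cells and from -0.85 to 0.40 in NK cells, and those of *Eomes* in NK cells from -0.83 to 0.47.

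Whether a difference between gates or classes depended on the genotype was tested as an interaction for 59 pairs of a member and a comparison. No adjusted p was under 0.05, 4 unadjusted p-values were, and the lowest adjusted p was 0.54, for *Ikzf2* in CD8 against CD4 CD25- T cells (0.71 on the log2 scale). Over all genes, from 232 of 6552 to 429 of 7137 had an unadjusted interaction p under 0.05 in a comparison, a share near that of the members. The Csf1rfl/fl tumor of run 1 was the lowest of the 4 in 32 of 48 member values with at least 20 UMIs in the 6 lymphocyte gates (66.7%), against 33.3% of the values of all genes. The part of its hashtags in these levels was not tested.

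**Figure D5:**
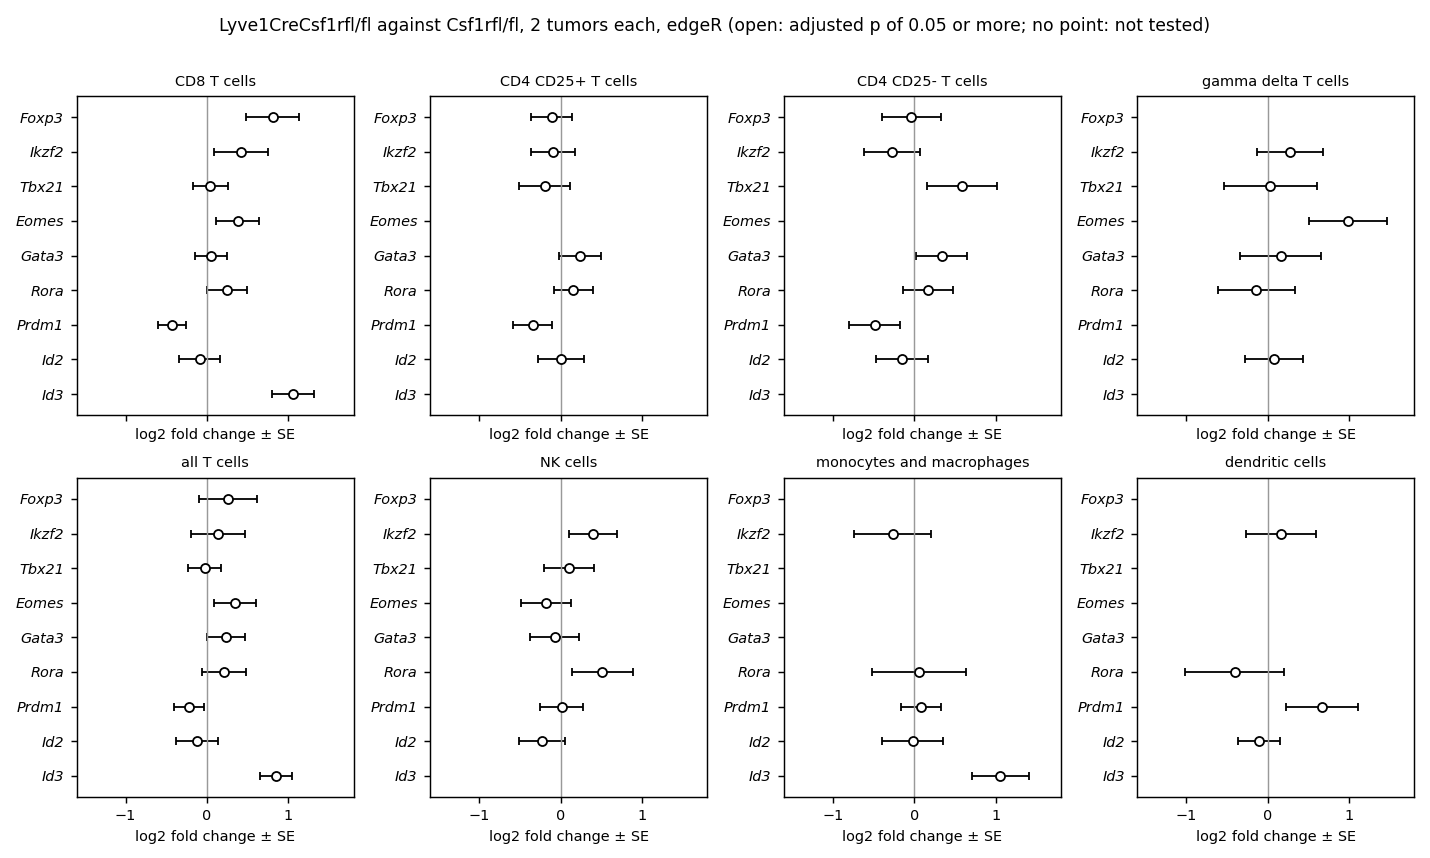
Log2 fold change of Lyve1CreCsf1rfl/fl against Csf1rfl/fl tumors (± SE, edgeR, 2 tumors each) for each factor in 8 gates, with open points where the adjusted p is 0.05 or more and no point where a factor was not tested. All 54 points are open, and *Id3* lies furthest to the right in CD8 T cells (1.06) and in monocytes and macrophages (1.06).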

How the data were processed

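The authors sorted viable CD45+ cells of 4 tumors, labelled each tumor with a hashtag antibody, pooled 1 tumor of each genotype in each of 2 Chromium 3′ runs, counted UMIs with Cell Ranger 6.0.1 on mm10 and deposited raw counts per gene and cell. They kept singlets with few mitochondrial reads and removed, in all samples, 4 clusters specific to the Lyve1CreCsf1rfl/fl tumor of run 2. The paper describes these clusters as lymphocytes rich in ribosomal gene RNA. The part of their removal in the T cell levels and genotype comparisons was not tested. The deposited hashtag values are raw tag counts by the authors. Here they were normalized by centred log-ratio within each run, and the higher of both values set the tumor of a cell. The authors' table of SCTransform scores (corrected counts, mitochondrial percentage regressed) was used only for the names of the kept cells. Strand setting of the counting is not given in the sources used here.

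Gates used UMIs of surface markers alone. T cells had at least 2 UMIs of *Cd3d*, *Cd3e* and *Cd3g*, NK cells a UMI of *Ncr1* or *Klrb1c* and none of CD3, and both lacked B cell, monocyte and neutrophil markers. T cells were divided by *Cd4*, *Cd8a* and *Cd8b1*, *Trdc* and *Il2ra*. Monocytes and macrophages had a UMI of *Csf1r*, *Adgre1* or *Fcgr1*, and the T and NK gates excluded cells with any of these. *Csf1r* is the floxed gene, so gate membership can depend on the genotype, and this was not tested. No doublet caller was run. The authors had removed cells with both hashtags, and the gates removed only cells with a UMI of the markers they excluded, so doublets may remain. Shares were also computed after thinning each cell to 2000 UMIs, leaving out shallower cells. UMIs were summed per tumor and gate (at least 20 cells per tumor) and tested with edgeR 4.0.16 (quasi-likelihood, TMM, low counts filtered, Benjamini-Hochberg over all genes at 0.05), two-sided, with the tumor as a block between gates. DESeq2 1.42.0, other filters, gates and depths, and leaving out each tumor were alternatives. Assignment by the higher raw hashtag count was added after the data were seen. The tests were tried on simulated data. Intervals of count ratios are 95% exact and cover counting error only.

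The run number is a shared pool in the labels and so pairs the tumors. The correlation of deviations of tumors of the same run was 0.152 to 0.446 over 8 gates. The main genotype fit had no run block, and the fit with it was an alternative. The members, gates and gene lists were chosen with earlier results of these data known. Of each list the rule was to name up to 3 called genes with the largest change. The text names a selection of these, made after their values were seen, and 1 of them is not reported here.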

Additional observations from a re-analysis of the deposited data

Results flagged for a closer look

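Barcodes that the authors had not kept enter no comparison above, and in some a member stood above every kept tumor. They can include the removed lymphocyte clusters specific to the Lyve1CreCsf1rfl/fl tumor of run 2. *Id3* was at 0.3696 UMIs per 10000 in 1237 such barcodes within the CD8 T cell gate (282 UMIs), where the kept tumors reached 0.2996. It was at 0.3292 in 555 barcodes within the CD4 T cell gate (99 UMIs), where the kept tumors reached 0.1052. *Prdm1* was at 0.6532 in 150 barcodes within the NK cell gate (54 UMIs), where the kept tumors reached 0.4656. In the CD8 T cell gate *Prdm1* lay below every kept tumor (0.3014 against 0.362 to 0.5856), as did *Tbx21* (0.3722 against 0.4326 to 0.7363) and *Id2* (5.321 against 5.85 to 7.072). In the NK cell gate *Ikzf2* (0.4476 against 0.6459 to 1.25) and *Gata3* (0.2419 against 0.3968 to 0.8048) lay below every kept tumor. So did *Rora* (4 UMIs), *Id3* (2 UMIs) and *Foxp3* (0 UMIs) there. *Foxp3* was at 0.1874 in the CD8 T cell gate (143 UMIs), where the kept tumors reached 0.1602, a gap within 2 standard errors of counting. The other gaps were not weighed against the counting error of both sides, and each is taken from the highest or lowest of 4 tumors. In the CD4 T cell gate *Foxp3* lay below the kept tumors (1.154 against 1.691 to 3.361), as did *Ikzf2* (6.957 against 10.91 to 17.74). So did *Rora* (1.237 against 1.804 to 2.344), *Gata3* (0.7616 against 0.9063 to 1.543), *Prdm1* (0.6385 against 0.9569 to 1.426) and *Tbx21* (0.2295 against 0.2913 to 0.3318). *Eomes* and *Id2* lay within their kept ranges there. The barcodes of all tumors are pooled, so these values have no replicate check.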

How the results depend on the processing

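Of 28 called member differences, 4 met the filter on low counts in 0 of 4 tumors of the lower gate, which fixes their direction. The other 24 kept their direction in all 312 alternatives run and their call in 288. Among 85 uncalled differences, 83 of 1100 alternatives had the other sign and 24 passed. Of 16 counts of called members, 191 of 208 alternatives were within 1.5 times the main count. Without a filter on low counts, 1 member passed between genotypes in CD8 T cells (*Id3*) and 3 between CD4 CD25+ and CD25- T cells. Without the 5% of cells with most UMIs 2 passed in the latter comparison, and with cells of 2000 to 8000 UMIs 2. That range gave 1 called member for the *Foxp3* split and 0 for the *Eomes* split, and moved the levels in CD4 CD25+ T cells to 3.62 (*Foxp3*), 19.2 (*Ikzf2*) and 1.69 (*Gata3*) UMIs per 10000. DESeq2's Wald test left 1 call between gamma delta and CD8 T cells. Leaving out each tumor gave 0 to 1 called members between genotypes in CD8 T cells, in all T cells and in monocytes and macrophages, and 2 between gamma delta and CD8 T cells. With a single tumor left in a genotype, that tumor is assumed to vary like the others. Gates with fewer than 20 cells in a tumor kept the 2000 to 8000 UMI setting from being run for gamma delta T cells and for the *Id3* split.

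On pairing, the run as a replicate block gave 0 called members between genotypes in each of 8 gates, as without it. Between gates, fits with no replicate block gave 2 called members for gamma delta against CD8 T cells and 0 for the *Foxp3* split. Depth limits the low members most: *Foxp3* rested on 1 UMI in CD8 T cells with *Id3* and 4 in NK cells, *Prdm1* on 14 in CD8 T cells with *Id3*, *Eomes* on 19 in CD4 CD25- T cells and *Id3* on 32 in gamma delta T cells.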
